A study of Mus musculus with 16 samples.

Results

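The hearts described here came from Trbp-cKO and control mice after TAC (transverse aortic constriction), surgery that narrows the aorta so that the left ventricle must pump against a raised pressure. They were 4 Trbp-cKO TAC and 4 control TAC hearts, chosen by genotype treatment and surgery from a series of 16 hearts in 4 groups of 4, and every gene of the count table was considered. All 16 male mice carried aMHC-MerCreMer and Trbp-Flox/Flox, a Cre recombinase driven by a cardiomyocyte promoter together with floxed alleles of Trbp. At the age of 4 weeks Trbp-cKO mice were given 5 daily injections of tamoxifen (30 mg/kg), which moves this Cre into the nucleus, and control mice were given corn oil. Deletion, Cre activity and tamoxifen itself therefore cannot be told apart in this comparison. The mice were 16 weeks old when the ventricles were taken, some 8 weeks past the operation. The sham-operated hearts of both genotypes serve here as a reference for the TAC hearts. They also entered the fit, so they help to set the spread per gene behind each p-value. The question the comparison addresses is which genes differ when a heart under pressure overload has lost Trbp in its cardiomyocytes. Collagen chains and the TGF-β pathway were left aside, and the other genes are described in both directions.

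Trbp, encoded by Tarbp2, binds duplex RNA and is a partner of Dicer in the step that cuts microRNA precursors into mature microRNAs. It also binds PKR, a kinase that responds to duplex RNA. A heart under pressure overload is known to re-express genes of the fetal ventricle, such as the natriuretic peptides Nppa and Nppb, and to shift its sarcomere isoforms and its fuel use, while its fibroblasts lay down matrix.

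The counts of the 8 TAC hearts summed to between 47101772 and 65150751, and 19955 of the 55573 genes listed passed edgeR's filter on low counts. Levels are given as CPM, a gene's counts relative to the heart's library size as adjusted by TMM, and they compare hearts within a gene and not genes with each other. Some libraries stood apart. Control TAC replicates 1 and 2 both lay on the same side of replicates 3 and 4 in 72.2% of the genes tested. Transcripts of the mitochondrial chromosome held 38.2% and 38.8% of the counts in control TAC replicates 1 and 2, against 25.2% and 21.7% in replicates 3 and 4 and 18.2% to 24.9% in the Trbp-cKO TAC hearts. Control TAC replicate 3 held 0.459% of its counts in a set of ribosomal, 7SL and 7SK transcripts, which held 0.0205% to 0.0611% in the other 7. Trbp-cKO TAC replicate 4 had the highest level of its group in 119 of the 309 genes called higher below. The counts of genes called, and those of most lists whose count moved, are therefore also given without these hearts, in settings chosen after seeing the data.

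Marker lists were used to check the tissue. The 8 cardiomyocyte markers, among them Myh6, Tnnt2 and Ryr2, summed to 23403, 18567, 44082 and 44428 CPM in control TAC replicates 1 to 4 and to 36736, 45057, 40410.3 and 28362 CPM in the Trbp-cKO TAC hearts, so the ranges overlapped. Activated fibroblast markers, such as Postn and Cthrc1, summed to 935, 1091, 424 and 526 CPM in control TAC and 2133, 1500.2, 2197 and 3438 CPM in Trbp-cKO TAC hearts, with no overlap, and 7 of the 11 rose by the criteria given below. The 8 endothelial markers summed to 1496, 1679, 805 and 769 CPM and 763, 672, 783 and 1162 CPM respectively, and none passed the test. Of 5 atrial markers, 3 rose, namely Nppa, Myl4 and Dkk3, and 1 had a log2 fold change below 0. The summed level was 1642 to 3894 CPM in control TAC against 10297 to 15774 CPM in Trbp-cKO TAC hearts. Nearly all of this sum was Nppa, at 1615 to 3858 CPM in control TAC and 10253 to 15668 CPM in Trbp-cKO TAC hearts. Resident fibroblast (10), macrophage (10), neutrophil (4), lymphocyte (8), erythroid (5) and mesothelial (5) markers held no member past the test. Single members were called in the other lists. They were Npr3 (log2 fold change 1.34, adjusted p = 0.00685) among endocardial and lymphatic markers and Cnn1 (log2 fold change 0.90, adjusted p = 0.0453) among smooth muscle and pericyte markers. Cidea (log2 fold change 1.21, adjusted p = 0.000703) was called in the adipocyte list, whose member Lep had no count in any TAC heart, and Gfra3 (log2 fold change -1.32, adjusted p = 0.0229) in the Schwann and neuronal list. Of the 5 skeletal muscle markers, Tnni2 and Tnnt3 were called higher. In ventricular tissue, fewer cells of a type and less RNA per cell cannot be told apart, and the part of cell composition in the results that follow was not tested.

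**Figure D1:**
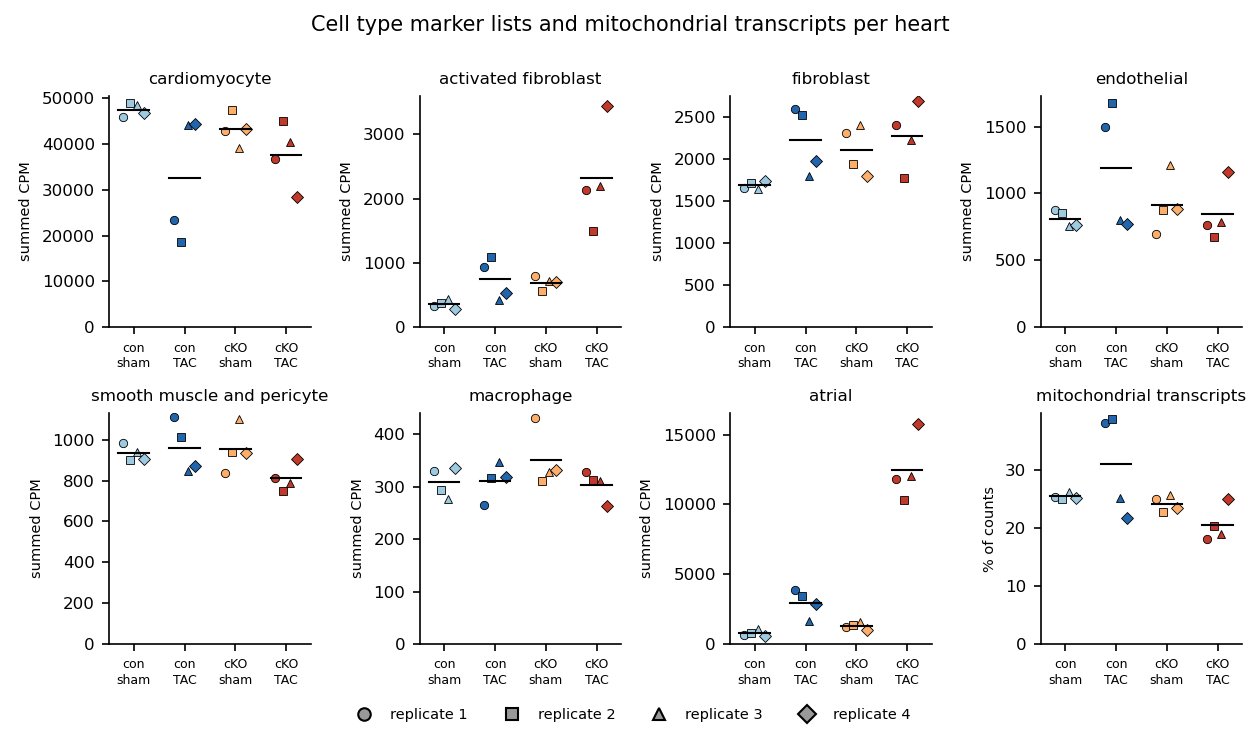
Summed CPM of 7 cell type marker lists and the percentage of counts from mitochondrial transcripts, for each of the 16 hearts (con, control; cKO, Trbp-cKO). Marker shapes give the replicate number and black lines the mean of 4 hearts. Control TAC replicates 1 and 2 are low in cardiomyocyte markers and high in endothelial markers and mitochondrial transcripts, and the Trbp-cKO TAC hearts lie above the other groups in activated fibroblast and atrial markers. The atrial sum is mostly Nppa.

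The targeted gene came first. Tarbp2 (ENSMUSG00000023051, chr15:102518192-102523676 of GRCm38) measured 25.2, 21.1, 30.6 and 31.1 CPM in the control TAC hearts and 7.14, 8.57, 9.05 and 9.74 CPM in the Trbp-cKO TAC hearts. Every Trbp-cKO TAC heart was below every control TAC heart (log2 fold change -1.65, standard error 0.14, adjusted p = 1.17e-05, from the quasi-likelihood test of edgeR). The remaining transcript was 8.62 ± 1.1 CPM (SD, n = 4) against 27 ± 4.74 CPM, in tissue whose other cells keep the gene. Of the 15 genes of the microRNA machinery and PKR that were tested, Tarbp2 alone was called. Dicer1, the enzyme that Trbp assists, measured 0.20 on the log2 scale, Drosha, which makes the precursors, 0.34, Prkra, the relative of Trbp known as PACT, 0.02, and Eif2ak2, the gene of PKR, -0.10.

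A gene was called where the adjusted p (Benjamini-Hochberg, over 19955 genes) was at most 0.05 and the absolute log2 fold change at least 0.8, the thresholds the study used. By this rule 309 genes were higher in Trbp-cKO TAC than in control TAC hearts, 1.55% of those tested, and 182 were lower, 0.912%, which makes 491 in either direction, 2.46%. Without the fold threshold 774 were higher, 3.88%, and 329 lower, 1.65%. The log2 fold change was at least 1 in size in 208 of the rises and 119 of the falls, and the median over all genes tested was -0.01. Most genes that rose coded for protein (282 of 309), while 110 of the 182 that fell did. In 262 of the rises every Trbp-cKO TAC heart was above every control TAC heart, against 6.12% of all genes tested, and in 137 of the falls every heart was below, against 3.93%. Such a separation gives p = 0.0286 in an exact permutation test over the 70 assignments of 8 hearts, two-sided, the smallest p that 4 hearts against 4 allow. The genes were called on these same hearts, so their separation is not separate evidence for the calls. Fewer genes rose in the sham hearts: 102 were higher with the deletion, 0.511%, and 91 lower, 0.456%. Of the 309 rises in TAC hearts 24 were also called higher in sham hearts and 3 were called lower there, and of the 182 falls 15 were also called lower and 3 higher.

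The counts depended on the scaling and on which hearts entered the fit. Scaled by library size alone, 579 genes were higher and 126 lower, so that rises were 82.1% of the calls in place of 62.9%. Fitted on the 8 TAC hearts alone the numbers were 67 and 17. Without control TAC replicates 1 and 2 they were 303 and 237 of 20821 genes tested, and without replicates 3 and 4 they were 1688 and 1032 of 20902. Without control TAC replicate 3 and Trbp-cKO TAC replicate 4 they were 532 and 442 of 20143. The counts of list members given below for these settings are to be read against these totals over all genes. Of the 309 and 182 genes, 183 and 83 were called in the same direction without control TAC replicates 1 and 2. Among the falls, 44 were no longer called without control TAC replicate 3, and 7 of the falls, including Rn7sk, Rn7s1 and Rn7s2, were over 10 times higher in that heart than in any other control TAC heart. The genes described by name below follow a rule given with the processing, and 84 of these 123 were called. The call of 19 of the 84 held in each of the 20 alternative settings, namely Tarbp2, Myh7b, Cdh23, Stbd1, Mlph, Gpnmb, Shisa3, AW551984, Myl9, Myl4, Acta2, Nppa, Ccn2, Gpx3, Srxn1, Slc2a1, Ccnd2, Loxl4 and Adamts8. These 19 and Grk5 were also the 20 of the 84 whose call held in the fit of the 8 TAC hearts alone.

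**Figure D2:**
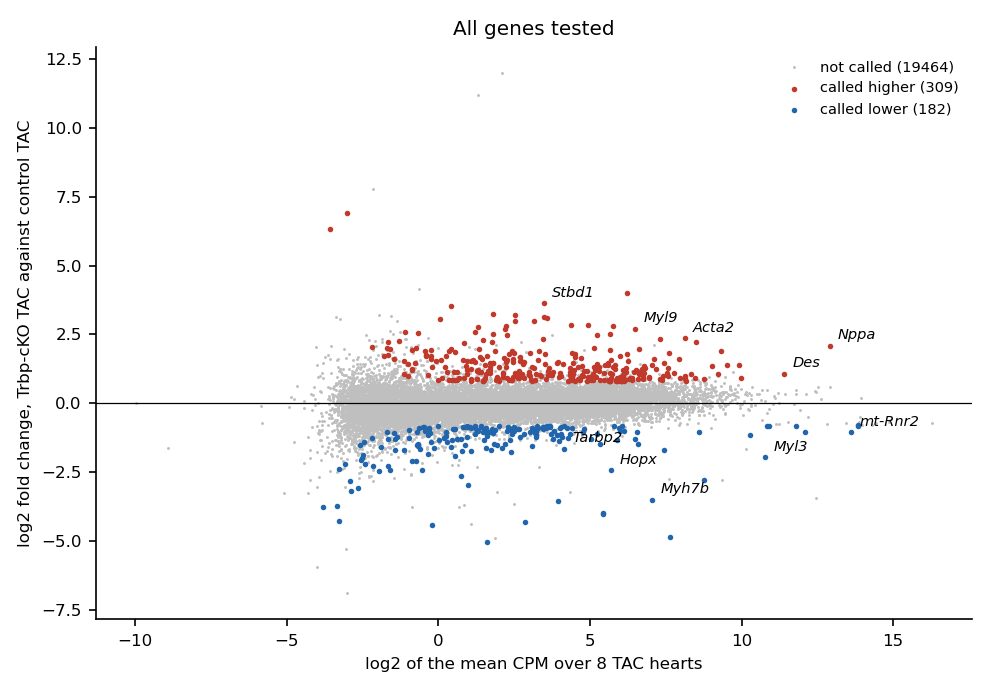
Log2 fold change between Trbp-cKO TAC and control TAC hearts against the log2 of the mean CPM over the 8 hearts, for the 19955 genes tested. Red points are the 309 genes called higher and blue points the 182 called lower; Myh7b fell by 3.50 and Stbd1 rose by 3.62 on the log2 scale.

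Among genes whose hearts did not overlap and whose mean log2 CPM was at least 1, the largest rise was that of Stbd1 (chr5:92603041-92606579), which tethers glycogen to membranes. Its CPM was 1.44, 1.48, 2.19 and 1.53 in the control TAC hearts and 25.4, 27, 16.6 and 13 in the Trbp-cKO TAC hearts, a 12.3-fold difference (log2 fold change 3.62, standard error 0.25, adjusted p = 1.95e-06). The means of the sham hearts lay between those of the TAC groups, at 12.3 CPM in control and 13.4 CPM in Trbp-cKO hearts. Trbp-cKO TAC replicate 4 was within the range of the sham hearts, and every control TAC heart was below every sham heart. Mlph, an adaptor of melanosome transport, measured 1.96, 2.52, 1.56 and 1.97 CPM in control TAC and 19.2, 16.4, 11.1 and 16.4 CPM in Trbp-cKO TAC hearts (log2 fold change 2.98, standard error 0.21, adjusted p = 1.95e-06). Gpnmb, a transmembrane glycoprotein of lysosome-rich cells, rose from a range of 1.05 to 1.56 CPM to one of 6.07 to 17.3 CPM (log2 fold change 2.97, standard error 0.34, adjusted p = 0.000163). Shisa3, an inhibitor of Wnt and FGF receptors, rose from a range of 3.31 to 6.58 CPM to one of 20.04 to 46.4 CPM (log2 fold change 2.86, standard error 0.28, adjusted p = 5.21e-05). All 3 were separated by a wide gap between the groups. The uncharacterized gene AW551984 measured 0.527 to 0.755 CPM in control TAC and 2.49 to 5.68 CPM in Trbp-cKO TAC hearts (log2 fold change 2.79, standard error 0.33, adjusted p = 0.000233).

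Psca, a surface protein of epithelial cells that lay outside the naming rule and was picked out after its values were seen, had a larger log2 fold change, with 2.38, 3.89, 7.9 and 20.9 CPM in control TAC and 5.98, 142, 232 and 185 CPM in Trbp-cKO TAC hearts (log2 fold change 4.01, adjusted p = 0.038), and its groups overlapped.

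Other large rises included genes of connective tissue, and most were uneven between hearts of a group. Chodl, which encodes the membrane lectin chondrolectin, measured 0.982, 1.16, 0.199 and 0.298 CPM in control TAC and 4.29, 7.51, 1.98 and 11.2 CPM in Trbp-cKO TAC hearts (log2 fold change 3.25, adjusted p = 0.0054). Cilp2, a cartilage matrix protein, measured 1.6, 2.33, 0.348 and 0.281 CPM in control TAC and 9.27, 6.0, 4.44 and 22.1 CPM in Trbp-cKO TAC hearts (log2 fold change 3.20, adjusted p = 0.00928). Tnmd, the tendon protein tenomodulin, measured 1.38, 2.54, 0.331 and 0.527 CPM in control TAC and 3.63, 7.27, 4.88 and 17.4 CPM in Trbp-cKO TAC hearts (log2 fold change 2.80, adjusted p = 0.0227). In these 3 genes Trbp-cKO TAC replicate 4 was the highest of its group, and control TAC replicates 1 and 2 lay above replicates 3 and 4. Cthrc1, secreted by activated fibroblasts, measured 0.116 to 1.18 CPM in control TAC and 1.98 to 8.58 CPM in Trbp-cKO TAC hearts (log2 fold change 2.60, adjusted p = 0.0198). Its highest value was that of Trbp-cKO TAC replicate 4, and over the 20 alternative settings its log2 fold change ran from 1.52 to 4.35. The call of Tnmd ended when control TAC replicate 1 or Trbp-cKO TAC replicate 4 was left out (log2 fold changes 2.15 to 2.87, adjusted p from 0.0508 to 0.0629).

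Among the falls in the set of named genes Myh7b was the largest, and it is described with the sarcomere genes. The microRNA locus Gm24270, outside that set, also met the limits on level and overlap (log2 fold change -3.57, adjusted p = 0.0418, edgeR). It measured 3.82, 3.05, 103 and 2.67 CPM in control TAC and 2.15 to 2.55 CPM in Trbp-cKO TAC hearts, so control TAC replicate 3 stood apart. Hopx, a homeodomain protein that acts on cardiac transcription, measured 31.2, 22.1, 163 and 133 CPM in control TAC and 13.6, 18.9, 21.7 and 11.1 CPM in Trbp-cKO TAC hearts (log2 fold change -2.42, standard error 0.49, adjusted p = 0.0111). Control TAC replicates 1 and 2 were already close to the Trbp-cKO TAC hearts, and the call was lost when replicates 3 and 4 were left out. Sham hearts had 235 CPM in control and 55.6 CPM in Trbp-cKO mice. Cdh23, an adhesion protein of the cadherin family, fell in all settings tried, from a range of 9.81 to 14.4 CPM to one of 3.59 to 4.93 CPM (log2 fold change -1.56, standard error 0.22, adjusted p = 0.000812). Dct, an enzyme of melanin synthesis, went from a range of 6.49 to 9.09 CPM to one of 1.02 to 2.93 CPM (log2 fold change -1.78, adjusted p = 0.00419). Bex1 measured 3.29 to 8.2 CPM in control TAC and 0.874 to 2.73 CPM in Trbp-cKO TAC hearts (log2 fold change -1.69, adjusted p = 0.0101). Rhd, a relative of the Rhesus blood group proteins, measured 3.11 to 7.41 CPM in control TAC and 1.28 to 2.32 CPM in Trbp-cKO TAC hearts (log2 fold change -1.47, adjusted p = 0.00457). These 3 genes also fell in the sham hearts, where the log2 fold changes were -1.42, -1.69 and -1.72 (adjusted p = 0.0322, 0.0238 and 0.00493, edgeR).

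Other genes that fell encoded matrix or surface proteins. Efemp1, the matrix glycoprotein fibulin-3, measured 4.84, 4.12, 7.19 and 6.41 CPM in control TAC and 1.36, 2.43, 2.49 and 1.57 CPM in Trbp-cKO TAC hearts (log2 fold change -1.52, standard error 0.22, adjusted p = 0.000902). Hmcn2, a large protein of the basement membrane, measured 53.3, 76.8, 57.9 and 48.1 CPM in control TAC and 30.8, 23, 20.6 and 10.1 CPM in Trbp-cKO TAC hearts (log2 fold change -1.48, standard error 0.32, adjusted p = 0.0145). The call of Hmcn2 was lost without control TAC replicates 1 and 2 (log2 fold change -1.34). In the sham hearts both lay above 0 and did not pass the test (log2 fold changes 0.32 and 0.52, adjusted p = 0.549 and 0.513). Klra9, a receptor of the Ly49 family of natural killer cells whose members share much sequence, fell to a range of 0.578 to 1.25 CPM from one of 2.25 to 4.2 CPM (log2 fold change -1.73, adjusted p = 0.0179), and its reads may be shared among family members. The call of Klra9 ended when control TAC replicate 1 or Trbp-cKO TAC replicate 1 or 3 was left out (log2 fold changes -1.55 to -1.68, adjusted p from 0.0517 to 0.0592).

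Genes of the fetal and hypertrophic program were mostly above 0. Of 21 members tested, 10 rose and 1 fell (Hopx), with a median log2 fold change of 0.90, against -0.01 over all genes. The number that rose was 8 without control TAC replicates 1 and 2 and 11 without replicates 3 and 4. The natriuretic peptide gene Nppa (chr4:148000722-148002079) measured 3858, 3404, 1615 and 2800.4 CPM in control TAC and 11757, 10253, 11949 and 15668 CPM in Trbp-cKO TAC hearts (log2 fold change 2.09, standard error 0.27, adjusted p = 0.000512). Nppb, its neighbor on chromosome 4, measured 631, 714, 288 and 496 CPM in control TAC and 1408, 1392, 1418 and 1355 CPM in Trbp-cKO TAC hearts (log2 fold change 1.39, standard error 0.25, adjusted p = 0.00567). The lowest Trbp-cKO TAC heart was above the highest control TAC heart for both peptides. Myl4, the light chain of atrial and fetal ventricular myosin, was low but separated, with 1.96, 1.8, 1.14 and 1.21 CPM against 4.91, 3.94, 6.73 and 7.2 CPM (log2 fold change 1.90, standard error 0.22, adjusted p = 0.00019). Acta2, smooth muscle actin, which is expressed in fetal cardiomyocytes, smooth muscle and activated fibroblasts, measured 109, 87.2, 81.4 and 86.6 CPM in control TAC and 469, 335, 757 and 302 CPM in Trbp-cKO TAC hearts (log2 fold change 2.35, standard error 0.28, adjusted p = 0.000289). In sham hearts it also rose, from 219.8 ± 64.4 to 499 ± 91 CPM (SD, n = 4 each), so the control TAC hearts were the lowest of the 4 groups. The intermediate filament gene Des, at 1187 to 2548 CPM in control TAC and 3403 to 3838 CPM in Trbp-cKO TAC hearts, rose as well (log2 fold change 1.07, adjusted p = 0.00868). The call of Des was lost without control TAC replicates 1 and 2 (log2 fold change 0.67). Ccn2, Gdf15, Uchl1 (log2 fold change 1.93, adjusted p = 0.000948), Enah (log2 fold change 0.88, adjusted p = 0.00132) and Rcan1 (log2 fold change 0.90, adjusted p = 0.0395), a target of calcineurin, completed the rises. Other members did not pass: Myh7, the β-myosin heavy chain, had a log2 fold change of -0.21 (adjusted p = 0.487), Acta1 at 0.35 (adjusted p = 0.734) and Ankrd1 at 0.44 (adjusted p = 0.0704).

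Some sarcomere genes fell and others rose. Members of these lists include genes that the study itself measured for this purpose, so their direction is not independent evidence. Of 11 slow-twitch sarcomere genes and regulators tested, 4 fell and 2 rose (median log2 fold change -0.21), and without control TAC replicates 1 and 2 4 fell and 0 rose. Myh7b (chr2:155611212-155634307), a slow myosin heavy chain gene, measured 343, 244, 195 and 193 CPM in control TAC and 13.9, 24.7, 30.8 and 16.5 CPM in Trbp-cKO TAC hearts (log2 fold change -3.50, standard error 0.30, adjusted p = 1.51e-05). The fall was 11.3-fold, and the highest Trbp-cKO TAC heart was far below the lowest control TAC heart. Myl3, the ventricular and slow essential light chain, measured 2132, 1616, 3737 and 3772 CPM in control TAC and 803, 1078, 699 and 328 CPM in Trbp-cKO TAC hearts (log2 fold change -1.95, standard error 0.32, adjusted p = 0.0025). Tnnc1, the troponin C of heart and slow muscle, measured 1571, 1315, 2003 and 2018 CPM in control TAC and 746, 892, 792 and 652 CPM in Trbp-cKO TAC hearts (log2 fold change -1.16, standard error 0.16, adjusted p = 0.000566). For both, control TAC replicates 1 and 2 were lower than replicates 3 and 4 and still above every Trbp-cKO TAC heart. Tnnt1, slow troponin T, fell to a range of 3.81 to 6.67 CPM from one of 7.02 to 15.7 CPM (log2 fold change -1.05, adjusted p = 0.0152).

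The rises in the slow-twitch list were those of Sox6 and Mybpc1. Sox6, a repressor of slow muscle genes that was listed here as their regulator, measured 5.75, 5.92, 14.7 and 11.9 CPM in control TAC and 32.5, 30.6, 26.9 and 11.6 CPM in Trbp-cKO TAC hearts (log2 fold change 1.41, standard error 0.33, adjusted p = 0.0226), and Trbp-cKO TAC replicate 4 overlapped the controls. Mybpc1, slow myosin binding protein C, was near the limit of detection at 0.0351 to 0.209 and 0.381 to 1.82 CPM (log2 fold change 2.57, adjusted p = 0.0194). The call of Sox6 ended when control TAC replicate 1 or 2, or Trbp-cKO TAC replicate 1, 2 or 3 was left out (log2 fold changes 1.22 to 1.38, adjusted p from 0.0523 to 0.0766). The call of Mybpc1 ended when control TAC replicate 1 or Trbp-cKO TAC replicate 2 was left out (log2 fold changes 1.77 to 2.42, adjusted p from 0.0586 to 0.0665). The call of Tnnt1 ended when Trbp-cKO TAC replicate 1 was left out (log2 fold change -0.99, adjusted p = 0.0542).

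Of 11 fast-twitch sarcomere genes, 4 rose and none fell (median 1.12). The number that rose was 2 without control TAC replicates 1 and 2 and 5 without replicates 3 and 4. Myl9, which the study counts among fast-twitch genes and which is known as a light chain of smooth muscle and non-muscle myosin, measured 26.1, 34.1, 17.2 and 18.4 CPM in control TAC and 127, 97.4, 177 and 224 CPM in Trbp-cKO TAC hearts (log2 fold change 2.71, standard error 0.27, adjusted p = 6.6e-05). Tpm2, β-tropomyosin, measured 30.7, 35.4, 17.2 and 24.5 CPM in control TAC and 67.4, 92.2, 56.1 and 67.9 CPM in Trbp-cKO TAC hearts (log2 fold change 1.40, standard error 0.20, adjusted p = 0.00082). Both were separated between the groups and were also higher in Trbp-cKO sham hearts (log2 fold changes 1.61 and 0.96, adjusted p = 0.0075 and 0.0231, edgeR). The fast troponins Tnnt3 and Tnni2 were called at levels of 1.18 to 2.38 and 0.349 to 0.763 CPM in Trbp-cKO TAC hearts (log2 fold change 1.32, adjusted p = 0.0357, and log2 fold change 1.08, adjusted p = 0.0392). The call of Tnnt3 ended when control TAC replicate 1, 2, 3 or 4, or Trbp-cKO TAC replicate 3 or 4 was left out (log2 fold changes 1.09 to 1.44, adjusted p from 0.0551 to 0.0778). The call of Tnni2 ended when control TAC replicate 1 or 2, or Trbp-cKO TAC replicate 1, 2 or 3 was left out (log2 fold changes 0.89 to 1.07, adjusted p from 0.0852 to 0.127). The adult cardiomyocyte program as a whole lay at a median of 0.01 over 22 genes, with Myl3 and Tnnc1 as its calls. Cox7a1, the heart form of a cytochrome oxidase subunit, had a log2 fold change of -0.73 (adjusted p = 0.0226). Myh6, the α-myosin heavy chain, was at 0.19 (adjusted p = 0.765) and Tnni3, cardiac troponin I, at -0.35 (adjusted p = 0.281).

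**Figure D3:**
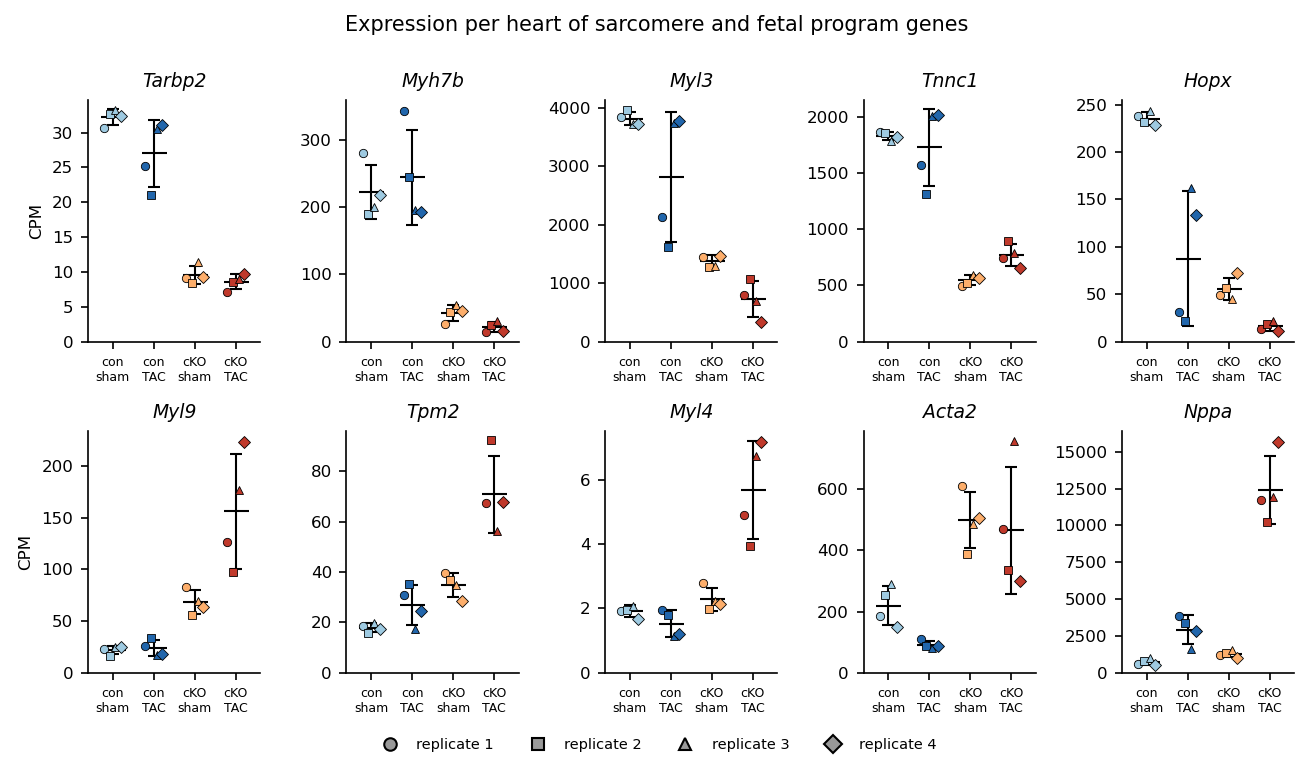
CPM of Tarbp2, sarcomere genes and fetal program genes in each of the 16 hearts (con, control; cKO, Trbp-cKO), with the mean and SD of 4 hearts per group in black. The upper row shows genes that are lower and the lower row genes that are higher in Trbp-cKO TAC than in control TAC hearts, with no overlap between the 4 and 4 hearts in any panel.

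Cardiac myosin heavy chain genes are known to host microRNAs, and the mature sequences are shown so that their seeds can be compared. Mir499 lies within Myh7b, Mir208b within Myh7 and Mir208a within Myh6. The mature strands from RefSeq (GRCm38.p6) follow, 5′ to 3′, with the seed, bases 2 to 8, in capitals. They were added after the values were seen.
mmu-miR-208a-3p: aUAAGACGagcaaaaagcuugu
mmu-miR-208b-3p: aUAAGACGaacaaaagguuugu
mmu-miR-499-5p: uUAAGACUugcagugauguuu
The seed UAAGACG is shared by miR-208a and miR-208b, and miR-499 has the seed UAAGACU. The libraries hold polyadenylated RNA, so mature microRNAs were not measured. Counts at these loci come from host or precursor transcripts. The Mir208b locus (chr14:54975700-54975776) measured 4.46, 2.11, 5.0 and 3.32 CPM in control TAC and 1.67, 2.13, 1.97 and 1.35 CPM in Trbp-cKO TAC hearts (log2 fold change -1.06, standard error 0.24, adjusted p = 0.019), and control TAC replicate 2 overlapped the Trbp-cKO TAC hearts. The Mir208a locus was below 1 CPM in every TAC heart (log2 fold change -0.21, adjusted p = 0.8), and Mir499 did not pass the filter on low counts.

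A minority of the genes of glucose use passed the test. Of 27 genes of glucose uptake and glycolysis, 5 rose and none fell (median log2 fold change 0.49, with 21 members above 0). Leaving out control hearts gave 4 rises without replicates 1 and 2 and 16 without replicates 3 and 4. Slc2a1, the glucose transporter GLUT1 that is prominent in the fetal heart, measured 15.5, 19.3, 15.6 and 19.97 CPM in control TAC and 34.6, 31, 40.6 and 36.3 CPM in Trbp-cKO TAC hearts (log2 fold change 1.02, standard error 0.13, adjusted p = 0.000441). Its level in sham hearts was 18.4 CPM in control and 18.4 CPM in Trbp-cKO mice, close to that of the control TAC hearts. Hk1, the hexokinase of fetal heart, measured 108, 102, 164 and 191 CPM in control TAC and 289.7, 297, 347 and 265 CPM in Trbp-cKO TAC hearts (log2 fold change 1.08, standard error 0.19, adjusted p = 0.00373). Pgam1, phosphoglycerate mutase, measured 48.7, 48.3, 74.7 and 78.5 CPM in control TAC and 169, 158, 174 and 94.9 CPM in Trbp-cKO TAC hearts (log2 fold change 1.25, standard error 0.19, adjusted p = 0.0016), and it has processed pseudogenes that can share its reads. The liver-type phosphofructokinase Pfkl (log2 fold change 0.85, adjusted p = 0.0145) and the lactate exporter Slc16a3 (log2 fold change 1.13, adjusted p = 0.0163) each had 1 Trbp-cKO TAC heart within the control range. The call of Pfkl ended when control TAC replicate 1 or 2, or Trbp-cKO TAC replicate 3 was left out (log2 fold changes 0.73 to 0.79, adjusted p from 0.0446 to 0.0558). The call of Slc16a3 ended when control TAC replicate 1 was left out (log2 fold change 1.10, adjusted p = 0.0537). The call of Hk1 was lost when control TAC replicates 1 and 2 were both left out.

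Glycogen genes followed. Of 19 members tested 2 rose, Stbd1 and Gyg, and the median was 0.41. The count depended on the control hearts, with 1 rise and 1 fall without control TAC replicates 1 and 2 and 15 rises without replicates 3 and 4. Gyg, glycogenin, the primer of glycogen chains, measured 91.5, 79, 146 and 160.4 CPM in control TAC and 262, 265, 295 and 192 CPM in Trbp-cKO TAC hearts (log2 fold change 1.09, standard error 0.20, adjusted p = 0.00578), and its call was lost without control TAC replicates 1 and 2 (log2 fold change 0.72). The list of fatty acid uptake and oxidation (35 genes, median 0.10) held no call. Its smallest p belonged to Pdk4, the kinase that restrains pyruvate dehydrogenase, with 83.5, 61.5, 137 and 119.8 CPM against 247, 212, 119 and 266 CPM (log2 fold change 1.07, standard error 0.33, adjusted p = 0.0701). Etfb (log2 fold change -0.48, adjusted p = 0.104) and Slc27a6 (log2 fold change 1.01, adjusted p = 0.188) came next. No member passed in the TCA cycle list (21 genes, median 0.20), where Dlat, Pdha1 and Idh3g had log2 fold changes of 0.49, 0.41 and 0.25 (adjusted p = 0.555, 0.571 and 0.579). In Pdha1, a subunit of pyruvate dehydrogenase, control TAC replicates 1 and 2 (236 and 207 CPM) and Trbp-cKO TAC replicate 4 (341 CPM) were low, and the other 5 TAC hearts had 704 to 759.8 CPM. The same 3 hearts had the lowest sums of cardiomyocyte markers. Branched-chain amino acid and ketone genes (20, median 0.07) held no call, with Bdh1 (log2 fold change 0.94, adjusted p = 0.19), Oxct1 (log2 fold change 0.58, adjusted p = 0.284) and Bckdhb (log2 fold change -0.40, adjusted p = 0.41) lowest in p. Without control TAC replicates 3 and 4, 22 fatty acid, 19 TCA cycle and 13 branched-chain and ketone genes were called higher, and without replicates 1 and 2 none was.

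A few transcripts of the mitochondrial chromosome, which encodes part of the respiratory chain, fell. All 13 protein-coding genes of that chromosome had log2 fold changes below 0, from -0.83 to -0.48 (median -0.76), 6 of them at an adjusted p of at most 0.05, and 3 were called. They were mt-Atp6 (log2 fold change -0.83, adjusted p = 0.031), mt-Atp8 (log2 fold change -0.81, adjusted p = 0.0358), whose reading frames overlap, and mt-Nd3 (log2 fold change -0.81, adjusted p = 0.0358). The ribosomal RNA mt-Rnr2 measured 19106, 21207, 17985 and 9463 CPM in control TAC and 7225, 8851, 8509 and 8378 CPM in Trbp-cKO TAC hearts (log2 fold change -1.04, standard error 0.23, adjusted p = 0.0185). The other, mt-Rnr1, measured 6318, 6934, 7615 and 2945 CPM in control TAC and 2639, 3121, 3196 and 2605 CPM in Trbp-cKO TAC hearts (log2 fold change -1.04, adjusted p = 0.022). Of 22 tRNA genes of that chromosome 3 fell, those of isoleucine (mt-Ti, log2 fold change -1.49, adjusted p = 0.0115), glutamine (mt-Tq, log2 fold change -1.29, adjusted p = 0.0145) and methionine (mt-Tm, log2 fold change -1.05, adjusted p = 0.04). The call of mt-Ti was lost without control TAC replicates 1 and 2 (log2 fold change -0.86). mt-Tq and mt-Tm lie outside the rule for named genes and were chosen after their values were seen. Control TAC replicates 1 and 2 were the highest in mt-Atp6, mt-Atp8 and mt-Nd3, and replicate 4 lay among the Trbp-cKO TAC hearts. The call of mt-Atp6 ended when control TAC replicate 1 or 2, or Trbp-cKO TAC replicate 1, 2 or 3 was left out (log2 fold changes -0.71 to -0.85, adjusted p from 0.0608 to 0.0991). The call of mt-Atp8 ended when control TAC replicate 1 or 2, or Trbp-cKO TAC replicate 1, 2 or 3 was left out (log2 fold changes -0.67 to -0.83, adjusted p from 0.0673 to 0.111). The call of mt-Nd3 ended when control TAC replicate 1 or 2, or Trbp-cKO TAC replicate 1, 2 or 3 was left out (log2 fold changes -0.67 to -0.86, adjusted p from 0.06 to 0.111). The call of mt-Rnr1 ended when control TAC replicate 1 or 2, or Trbp-cKO TAC replicate 1 was left out (log2 fold changes -0.97 to -1.02, adjusted p from 0.0524 to 0.0685). The call of mt-Rnr2 ended when control TAC replicate 1 or Trbp-cKO TAC replicate 1 was left out (log2 fold change -0.98 for either, adjusted p from 0.0537 to 0.0616). With scaling by library size only, the calls of mt-Atp6, mt-Atp8 and mt-Nd3 were also lost, and without control TAC replicates 1 and 2 their log2 fold changes were -0.41, -0.35 and -0.38. Of 41 nuclear subunits none was called (median -0.04). Of these 6 rose when control TAC replicates 3 and 4 were left out, a setting that called 1688 of 20902 genes higher. Cox7a1, Ndufa5 and Cox8b, with the smallest p, were at -0.73, -0.39 and -0.41 (adjusted p = 0.0226, 0.073 and 0.0969), and every Trbp-cKO TAC heart was below every control TAC heart in all 3. Such a separation was seen in 4 of the 41 nuclear subunits, against 3.93% of all genes tested.

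Stress response genes rose in part. Of 23 genes of oxidative stress and NRF2, a transcription factor that induces antioxidant enzymes, 4 rose and none fell, 20 were above 0, and the median was 0.36. The rises numbered 4 without control TAC replicates 1 and 2 and 7 without replicates 3 and 4. Srxn1, sulfiredoxin, which reactivates peroxiredoxins, measured 18.9, 22.5, 21.8 and 23.3 CPM in control TAC and 54.9, 45.3, 53 and 46.4 CPM in Trbp-cKO TAC hearts (log2 fold change 1.21, standard error 0.11, adjusted p = 1.51e-05). Gpx3, the secreted glutathione peroxidase, measured 422, 453, 349 and 394 CPM in control TAC and 883, 921, 1224 and 1243 CPM in Trbp-cKO TAC hearts (log2 fold change 1.40, standard error 0.15, adjusted p = 0.000119). Nqo1, a quinone reductase, measured 17.3, 14.6, 29.96 and 38.8 CPM in control TAC and 70.7, 68.5, 71.4 and 50.02 CPM in Trbp-cKO TAC hearts (log2 fold change 1.37, standard error 0.26, adjusted p = 0.00685). The groups did not overlap in any of the 3. Gstm2, a glutathione transferase of a family with similar sequences, went from a range of 32.9 to 44.9 CPM to one of 64.9 to 87.1 CPM (log2 fold change 0.86, adjusted p = 0.000671). The call of Gstm2 ended when control TAC replicate 2 or Trbp-cKO TAC replicate 3 was left out (log2 fold changes 0.76 to 0.78, adjusted p from 0.00158 to 0.00277).

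The promoter of Srxn1 is shown because the call of Srxn1 held in all 20 alternatives and the window holds the core of the antioxidant response element, TGACNNNGC, searched on both strands. The 300 bases from RefSeq (GRCm38.p6, chr2:152105274-152105573, plus strand) run from 250 before the gene's start to 50 after it, with the match in capitals; it lies on the minus strand from base 29 after the start.
Srxn1: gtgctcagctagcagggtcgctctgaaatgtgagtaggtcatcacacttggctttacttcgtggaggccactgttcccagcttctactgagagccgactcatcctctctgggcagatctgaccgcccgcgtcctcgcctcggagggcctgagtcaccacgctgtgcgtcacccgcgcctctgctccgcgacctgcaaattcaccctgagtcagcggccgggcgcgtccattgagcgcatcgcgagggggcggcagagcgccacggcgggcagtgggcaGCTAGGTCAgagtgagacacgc
Such a match occurred in 4071 of 32851 promoter windows of this length, 12.4%, and in none of the windows of Gpx3, Gstm2 and Nqo1. This motif was chosen after the values were seen, and a match is a description of the letters only.

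For ATF4, the factor that carries the integrated stress response, a list of 26 response genes and targets was tested, of which 3 rose and none fell (median 0.30). Stbd1, 1 of the 3, is also counted in the glycogen list. The list was made with earlier results of these data known, so this count is not independent evidence. Without control TAC replicates 1 and 2 the rises were 5, and without replicates 3 and 4 5 rose and 2 fell. Over all genes the latter setting called 1688 higher and 1032 lower of 20902. Besides Stbd1 the rises in the main fit were Ppp1r15a, the phosphatase subunit that ends the response, with 18.9, 30.1, 25.6 and 26.3 CPM in control TAC and 43.3, 41.8, 46.5 and 61.3 CPM in Trbp-cKO TAC hearts (log2 fold change 0.94, standard error 0.14, adjusted p = 0.00163), and Gdf15, a stress-induced hormone. Gdf15 measured 66, 70.9, 8.41 and 15.3 CPM in control TAC and 132, 143, 209 and 137 CPM in Trbp-cKO TAC hearts (log2 fold change 1.95, standard error 0.54, adjusted p = 0.0466). It was already raised in control TAC replicates 1 and 2 over replicates 3 and 4. The call of Gdf15 ended when control TAC replicate 1, 3 or 4, or Trbp-cKO TAC replicate 1, 2, 3 or 4 was left out (log2 fold changes 1.61 to 2.3, adjusted p from 0.0513 to 0.113). The motif of ATF4 sites, TGATGCAA on either strand, was in 294 of 32851 promoter windows, 0.895%, and in none of those of Stbd1, Ppp1r15a and Gdf15. The window of Stbd1, described above, is printed for reference (RefSeq, GRCm38.p6, chr5:92602801-92603100, plus strand, no motif in capitals).
Stbd1: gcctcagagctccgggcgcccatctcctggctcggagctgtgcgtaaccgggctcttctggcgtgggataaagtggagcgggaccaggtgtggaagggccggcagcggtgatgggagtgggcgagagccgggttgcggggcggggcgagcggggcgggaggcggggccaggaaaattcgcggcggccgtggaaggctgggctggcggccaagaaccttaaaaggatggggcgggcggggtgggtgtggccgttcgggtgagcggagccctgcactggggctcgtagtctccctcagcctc

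Other stress lists gave few calls. No endoplasmic reticulum chaperone was called (19 genes, median 0.08), though P4hb, a disulfide isomerase and subunit of the collagen prolyl hydroxylase, was separated at 158 to 208 against 263 to 293 CPM (log2 fold change 0.62, standard error 0.10, adjusted p = 0.00253), under the fold threshold. Dnajc3 (log2 fold change 0.31, adjusted p = 0.106) and Canx (log2 fold change 0.33, adjusted p = 0.145) did not pass. None of 22 heat shock proteins and cochaperones passed (median -0.03), the smallest p being those of Fkbp4 (log2 fold change -0.64, adjusted p = 0.267), Bag3 (log2 fold change 0.48, adjusted p = 0.333) and Dnajb4 (log2 fold change 0.47, adjusted p = 0.354). Of 20 p53 targets Cdkn1a, the cell cycle inhibitor p21, rose (log2 fold change 1.33, standard error 0.31, adjusted p = 0.0236), with 27.8, 39, 23.8 and 32.3 CPM in control TAC and 55.3, 54.9, 50.4 and 148 CPM in Trbp-cKO TAC hearts. Its highest value was that of Trbp-cKO TAC replicate 4. The call of Cdkn1a ended when control TAC replicate 1 or 3 was left out (log2 fold changes 1.22 to 1.27, adjusted p from 0.0526 to 0.0735). Of 26 cell cycle genes Ccnd2, cyclin D2, rose from a range of 97.9 to 127 CPM to one of 205 to 251 CPM (log2 fold change 0.99, standard error 0.12, adjusted p = 0.000196), and 22 of the list were below 0 (median -0.23). Of 24 immediate early genes Ier3 rose from a range of 18 to 30.8 CPM to one of 42.4 to 67.1 CPM (log2 fold change 1.18, adjusted p = 0.00815), a call that was lost without control TAC replicates 1 and 2 (log2 fold change 1.02). Of 23 genes of protein breakdown and autophagy, 21 were above 0 and Bnip3, a receptor for mitophagy, was called (log2 fold change 0.87, adjusted p = 0.0128). The call of Bnip3 ended when control TAC replicate 1 or 2 was left out (log2 fold changes 0.75 to 0.76, adjusted p from 0.0373 to 0.0514). In this list 10 members rose when control TAC replicates 3 and 4 were left out.

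Some matrix genes other than collagens rose in several families, beside the higher level of activated fibroblast markers, with which they share Fn1, Thbs4, Postn and Cilp. Of 32 matricellular proteins and glycoproteins 7 rose, none fell, and the median was 0.75. Here 14 without control TAC replicates 1 and 2 and 7 without replicates 3 and 4 rose. Ccn2, connective tissue growth factor, measured 257, 359.9, 163 and 308 CPM in control TAC and 1032, 721, 1088 and 1239 CPM in Trbp-cKO TAC hearts (log2 fold change 1.91, standard error 0.24, adjusted p = 0.000334). Thbs4, thrombospondin 4, measured 70.4, 85.3, 24.3 and 31.8 CPM in control TAC and 205, 177, 191 and 482 CPM in Trbp-cKO TAC hearts (log2 fold change 2.32, standard error 0.39, adjusted p = 0.00334). Fibronectin, Fn1, measured 61.7, 80.4, 50.2 and 59.9 CPM in control TAC and 132, 113, 123 and 161 CPM in Trbp-cKO TAC hearts (log2 fold change 1.07, standard error 0.15, adjusted p = 0.000779). The groups did not overlap in these genes, and Trbp-cKO TAC replicate 4 was the highest in each. Of 12 small leucine-rich proteoglycans, which bind collagen fibrils, Fmod and Prelp rose (median 0.67), and the number was 4 without control TAC replicates 1 and 2 and 1 without replicates 3 and 4. Fmod, fibromodulin, measured 20.5, 24.7, 3.2 and 5.49 CPM in control TAC and 56.3, 55.9, 47.4 and 217 CPM in Trbp-cKO TAC hearts (log2 fold change 2.81, standard error 0.63, adjusted p = 0.0187). Trbp-cKO TAC replicate 4 was far above the other hearts, and over the 20 alternative settings the log2 fold change of Fmod ran from 1.66 to 4.42. Prelp was at log2 fold change 0.86, adjusted p = 0.028, with Trbp-cKO TAC replicate 2 within the control range. The call of Prelp ended when control TAC replicate 3 or Trbp-cKO TAC replicate 1, 3 or 4 was left out (log2 fold changes 0.63 to 0.88, adjusted p from 0.0516 to 0.0605).

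Some enzymes that cross-link or cut the matrix rose. All 5 lysyl oxidases, enzymes that join matrix fibers to each other, were above 0 and 3 rose. There were 5 rises without control TAC replicates 1 and 2, 1 without replicates 3 and 4 and 1 without control TAC replicate 3 and Trbp-cKO TAC replicate 4. Among them Loxl4 measured 1.04, 1.25, 0.944 and 0.965 CPM in control TAC and 2.69, 2.93, 2.49 and 2.72 CPM in Trbp-cKO TAC hearts (log2 fold change 1.37, standard error 0.18, adjusted p = 0.000566). Lox measured 17.1, 25.1, 6.16 and 7.16 CPM in control TAC and 38.8, 28, 31.4 and 125 CPM in Trbp-cKO TAC hearts (log2 fold change 2.01, standard error 0.49, adjusted p = 0.0267). Loxl2 was at log2 fold change 0.92, adjusted p = 0.0337. Loxl4 was tight in both groups, while in Lox Trbp-cKO TAC replicate 4 was far above the other hearts. The call of Lox ended when control TAC replicate 1 or 3, or Trbp-cKO TAC replicate 4 was left out (log2 fold changes 1.24 to 2.12, adjusted p from 0.0525 to 0.0608). The call of Loxl2 ended when control TAC replicate 1, 3 or 4, or Trbp-cKO TAC replicate 1 or 4 was left out (log2 fold changes 0.58 to 0.99, adjusted p from 0.0528 to 0.0688). Of 30 matrix proteases and inhibitors 5 rose and none fell (median 0.29), and 3 rose without control TAC replicate 3 and Trbp-cKO TAC replicate 4. The protease Adamts8 measured 1.87, 3.23, 1.66 and 2.05 CPM in control TAC and 7.92, 7.85, 6.54 and 5.05 CPM in Trbp-cKO TAC hearts (log2 fold change 1.64, standard error 0.24, adjusted p = 0.00132). Ctsk, cathepsin K, which degrades collagen, was at log2 fold change 1.17, adjusted p = 0.00434, the gelatinase Mmp2 at log2 fold change 1.10, adjusted p = 0.0129 and stromelysin, Mmp3, at log2 fold change 2.53, adjusted p = 0.0357. The call of Mmp2 ended when Trbp-cKO TAC replicate 4 was left out (log2 fold change 0.71, adjusted p = 0.00644). The call of Mmp3 ended when control TAC replicate 1, 3 or 4, or Trbp-cKO TAC replicate 3 or 4 was left out (log2 fold changes 1.78 to 2.66, adjusted p from 0.0543 to 0.0825).

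Ion channel and calcium genes mostly did not pass. Of 25 potassium, sodium and pacemaker channel genes 2 rose and 1 fell. Without control TAC replicates 1 and 2 there was 1 rise and 3 falls, and without replicates 3 and 4 11 rises and no fall. Hcn2, a pacemaker channel, measured 14.9, 10.7, 29.5 and 26.3 CPM in control TAC and 56.8, 60.1, 72.6 and 30.7 CPM in Trbp-cKO TAC hearts (log2 fold change 1.44, standard error 0.29, adjusted p = 0.0101). Kcnip2, the partner of Kv4 channels in the transient outward current, measured 51.9, 41.1, 128 and 151 CPM in control TAC and 303, 293, 333 and 100.3 CPM in Trbp-cKO TAC hearts (log2 fold change 1.47, standard error 0.39, adjusted p = 0.0422), with Trbp-cKO TAC replicate 4 inside the control range. Kcnv2, a modifier of Kv2 channels, measured 1.87, 0.759, 5.0 and 2.98 CPM in control TAC and 1.1, 0.919, 0.836 and 0.349 CPM in Trbp-cKO TAC hearts (log2 fold change -1.74, adjusted p = 0.0296). The call of Kcnip2 ended when control TAC replicate 1 or 2, or Trbp-cKO TAC replicate 1, 2 or 3 was left out (log2 fold changes 1.21 to 1.40, adjusted p from 0.088 to 0.128). The call of Kcnv2 ended when control TAC replicate 3 or Trbp-cKO TAC replicate 1, 2, 3 or 4 was left out (log2 fold changes -1.24 to -1.92, adjusted p from 0.0506 to 0.0707). None of the 24 calcium handling genes was called (median 0.06), the smallest p being those of Camk2b (log2 fold change -0.35, adjusted p = 0.0875), the sodium-calcium exchanger Slc8a1 (log2 fold change 0.79, adjusted p = 0.0988) and Itpr2 (log2 fold change -0.50, adjusted p = 0.121). Of the 24 genes 10 rose when control TAC replicates 3 and 4 were left out. Of 29 Z-disc, intercalated disc and stretch genes 25 were above 0 (median 0.43), and Pdlim3 (log2 fold change 0.96, adjusted p = 0.0138) and Ankrd23 (log2 fold change 0.92, adjusted p = 0.0357), which overlaps Gm42417 on the same strand, were called. Without control TAC replicates 1 and 2 no member was called, and without replicates 3 and 4 16 rose. The call of Pdlim3 ended when control TAC replicate 1 or Trbp-cKO TAC replicate 4 was left out (log2 fold changes 0.77 to 0.89, adjusted p from 0.0279 to 0.0537). The call of Ankrd23 ended when control TAC replicate 1 or 2, or Trbp-cKO TAC replicate 1, 2 or 3 was left out (log2 fold changes 0.74 to 0.88, adjusted p from 0.0782 to 0.111).

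Signaling genes gave a few calls each. Of 37 genes of Wnt, BMP and IGF signaling 3 rose: the Wnt regulator Dkk3 (log2 fold change 1.31, adjusted p = 0.0158), the receptor Fzd2 (log2 fold change 1.02, adjusted p = 0.0171) and the ligand Wnt11 (log2 fold change 1.01, adjusted p = 0.0378). Without control TAC replicate 3 and Trbp-cKO TAC replicate 4 the call of Dkk3 was lost (log2 fold change 0.78). The list held 6 rises without control TAC replicates 1 and 2. The call of Fzd2 ended when control TAC replicate 1 was left out (log2 fold change 0.94, adjusted p = 0.065). The call of Wnt11 ended when control TAC replicate 1, 2, 3 or 4, or Trbp-cKO TAC replicate 1 or 4 was left out (log2 fold changes 0.59 to 1.10, adjusted p from 0.0544 to 0.0773). Grk5, a kinase that desensitizes adrenergic receptors, rose from a range of 48.6 to 56.6 CPM to one of 81.3 to 106 CPM (log2 fold change 0.84, standard error 0.13, adjusted p = 0.00139) as the only call of 27 genes of the adrenergic, angiotensin and endothelin system. The call of Grk5 ended when Trbp-cKO TAC replicate 3 was left out (log2 fold change 0.78, adjusted p = 0.00573). Of 33 chemokines, cytokines and receptors, Tnfrsf12a, the receptor of TWEAK, rose from a range of 65.6 to 79 CPM to one of 103 to 163 CPM (log2 fold change 0.93, standard error 0.17, adjusted p = 0.00537). Ccl24, an eosinophil chemokine near the limit of detection, fell (log2 fold change -1.51, adjusted p = 0.0191). The call of Ccl24 ended when Trbp-cKO TAC replicate 2 was left out (log2 fold change -1.43, adjusted p = 0.0532). Of 19 complement and acute phase genes Serpina3n, a protease inhibitor of the acute phase, rose from a range of 23.1 to 51.1 CPM to one of 63.3 to 101 CPM (log2 fold change 1.26, adjusted p = 0.0284). The call of Serpina3n ended when control TAC replicate 1 or 3, or Trbp-cKO TAC replicate 1, 3 or 4 was left out (log2 fold changes 1.11 to 1.32, adjusted p from 0.0504 to 0.0695).

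Vessel and interferon genes were mostly below 0, with few calls. In angiogenesis and endothelial signaling 23 of 28 genes were below 0 (median -0.45, against -0.01 over all genes). The 8 endothelial markers, which share Kdr and Tie1 with that list, were also all below 0. Without control TAC replicates 3 and 4 10 members fell, and without replicates 1 and 2 none did. Angpt2, a destabilizing ligand of the Tie2 receptor, measured 11.3, 9.39, 3.01 and 3.46 CPM in control TAC and 1.91, 1.99, 2.61 and 3.11 CPM in Trbp-cKO TAC hearts (log2 fold change -1.49, standard error 0.38, adjusted p = 0.032). Control TAC replicates 1 and 2 were high and replicates 3 and 4 close to the Trbp-cKO TAC hearts. The call of Angpt2 ended when control TAC replicate 1 or 2, or Trbp-cKO TAC replicate 1, 2 or 3 was left out (log2 fold changes -1.14 to -1.53, adjusted p from 0.0717 to 0.109). Pdgfc, a growth factor for mesenchymal cells, rose in turn, from a range of 1.73 to 3.21 CPM to one of 4.46 to 9.17 CPM (log2 fold change 1.5, standard error 0.26, adjusted p = 0.00373). None of 32 interferon-stimulated genes was called, 24 were below 0, and the median was -0.21. A fall was called in 9 of them when control TAC replicates 3 and 4 were left out. The smallest p were those of the factor Irf1 (log2 fold change -0.64, adjusted p = 0.0505), the antiviral Rsad2 (log2 fold change -0.80, adjusted p = 0.0776) and Oas2 (log2 fold change -0.98, adjusted p = 0.114), a sensor of duplex RNA. In all 3, control TAC replicates 1 and 2 were the highest of the 8 hearts.

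The remaining lists held no call. Antigen presentation genes (15, median -0.10) were led by Cd74 (log2 fold change 0.54, adjusted p = 0.309), H2-Aa (log2 fold change 0.58, adjusted p = 0.311) and H2-Ab1 (log2 fold change 0.58, adjusted p = 0.39). Serine, folate and amino acid synthesis (17, median 0.05) was led by Aldh1l1 (log2 fold change -0.42, adjusted p = 0.097), Psph (log2 fold change -0.25, adjusted p = 0.284) and Pycr1 (log2 fold change 0.58, adjusted p = 0.321). In cholesterol and lipid synthesis (26, median 0.00) these were Me1 (log2 fold change 0.79, adjusted p = 0.0877), Insig1 (log2 fold change -0.31, adjusted p = 0.0924) and Hmgcs1 (log2 fold change 0.29, adjusted p = 0.168). In the activator arm of the clock (7 genes, median 0.18) the smallest p were those of Clock (log2 fold change 0.22, adjusted p = 0.255), Arntl (log2 fold change 0.78, adjusted p = 0.415) and Npas2 (log2 fold change 0.47, adjusted p = 0.492). In the repressor and output arm (12 genes, median -0.02) Bhlhe41 was at log2 fold change 0.54, adjusted p = 0.0458, under the fold threshold, Bhlhe40 at log2 fold change 0.54, adjusted p = 0.0921 and Per3 at log2 fold change -0.51, adjusted p = 0.194.

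**Figure D4:**
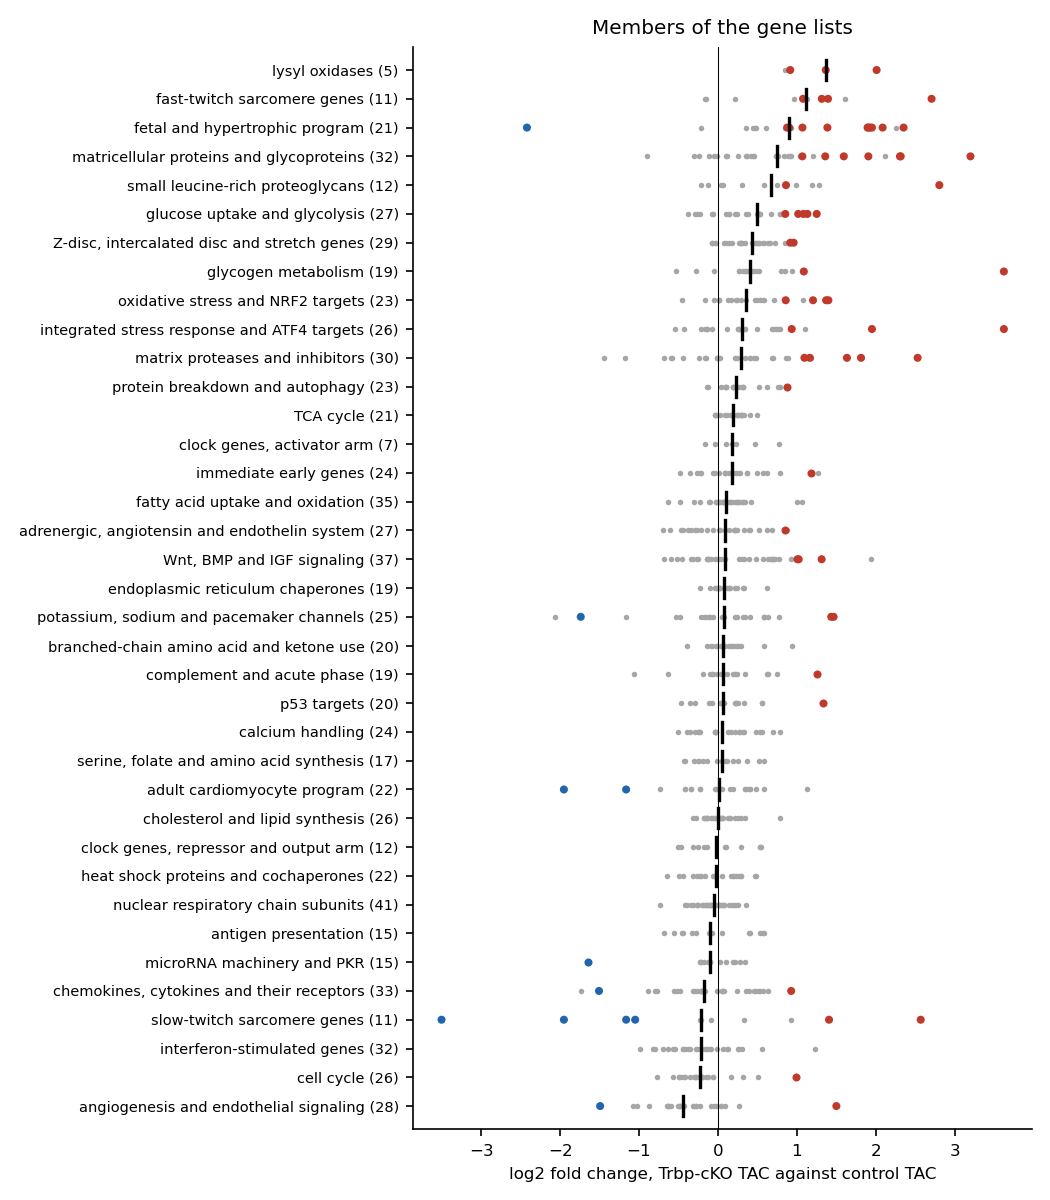
Log2 fold changes between Trbp-cKO TAC and control TAC hearts for the tested members of 37 gene lists, ordered by the list's median (black bar), with the number of members in parentheses. Red points were called higher and blue points called lower. Lysyl oxidases have the highest median, 1.36, and angiogenesis and endothelial signaling the lowest, -0.45.

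Whether the difference between Trbp-cKO and control hearts was another after TAC than after sham surgery was tested by the interaction term of the same fit. It called 174 genes, 0.872% of those tested, or 209 without the fold threshold, 1.05%, and 53 of the 309 rises and 29 of the 182 falls had an interaction at an adjusted p of at most 0.05, in each case with the sign of the change in TAC hearts. The interaction count was 130 without control TAC replicates 1 and 2, 2958 without replicates 3 and 4 and 423 without control TAC replicate 3 and Trbp-cKO TAC replicate 4. This test uses the same TAC hearts as the comparison above and is not independent of it. It also rests on the sham groups, which differed in clock genes. In Trbp-cKO sham hearts 6 of 12 repressor and output genes were called higher and 2 of 7 activator genes lower. The part of the hour of collection in the interaction was not tested. Among the calls with a mean log2 CPM of at least 1, collagens aside, the largest was that of Stbd1, 3.50 on the log2 scale (adjusted p = 0.000336, edgeR). Ccn2 had an interaction of 3.16 (adjusted p = 0.000604), and it was lower in Trbp-cKO sham (81.5, 60.6, 81.7 and 65.4 CPM) than in control sham hearts (194, 172, 192 and 131 CPM) and higher after TAC. Cdkn1a behaved likewise, with 70.2 ± 15.9 CPM in control sham and 22.4 ± 4.67 CPM in Trbp-cKO sham hearts (SD, n = 4 each), and an interaction of 2.98 (adjusted p = 0.00635). Ccn4, another CCN family member, was at or below 0.973 CPM in every sham heart and measured 0.782, 1.76, 0.629 and 0.527 CPM in control TAC and 3.73, 3.63, 2.83 and 8.1 CPM in Trbp-cKO TAC hearts (interaction 2.82, adjusted p = 0.0325). Akap5, a scaffold of protein kinase A, went the other way, with 3.33, 3.87, 2.63 and 2.73 CPM in control sham, 6.41, 8.57, 9.21 and 9.45 CPM in Trbp-cKO sham, 10.6, 10.1, 4.97 and 3.79 CPM in control TAC and 2.87, 4.3, 2.67 and 1.83 CPM in Trbp-cKO TAC hearts (interaction -2.76, adjusted p = 0.00963). It fell in TAC hearts (log2 fold change -1.34, adjusted p = 0.0232). The call of Akap5 ended when control TAC replicate 1 or 2, or Trbp-cKO TAC replicate 1 or 3 was left out (log2 fold changes -1.12 to -1.33, adjusted p from 0.0638 to 0.0773). In 5 of the sarcomere genes the deletion gave changes of the same sign after both surgeries, and the interaction did not pass the test. It was -1.11 for Myh7b (adjusted p = 0.179), -0.48 for Myl3 (0.634) and 0.58 for Tnnc1 (0.215). It was 1.09 for Myl9 (adjusted p = 0.163) and 0.43 for Tpm2 (0.475).

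**Figure D5:**
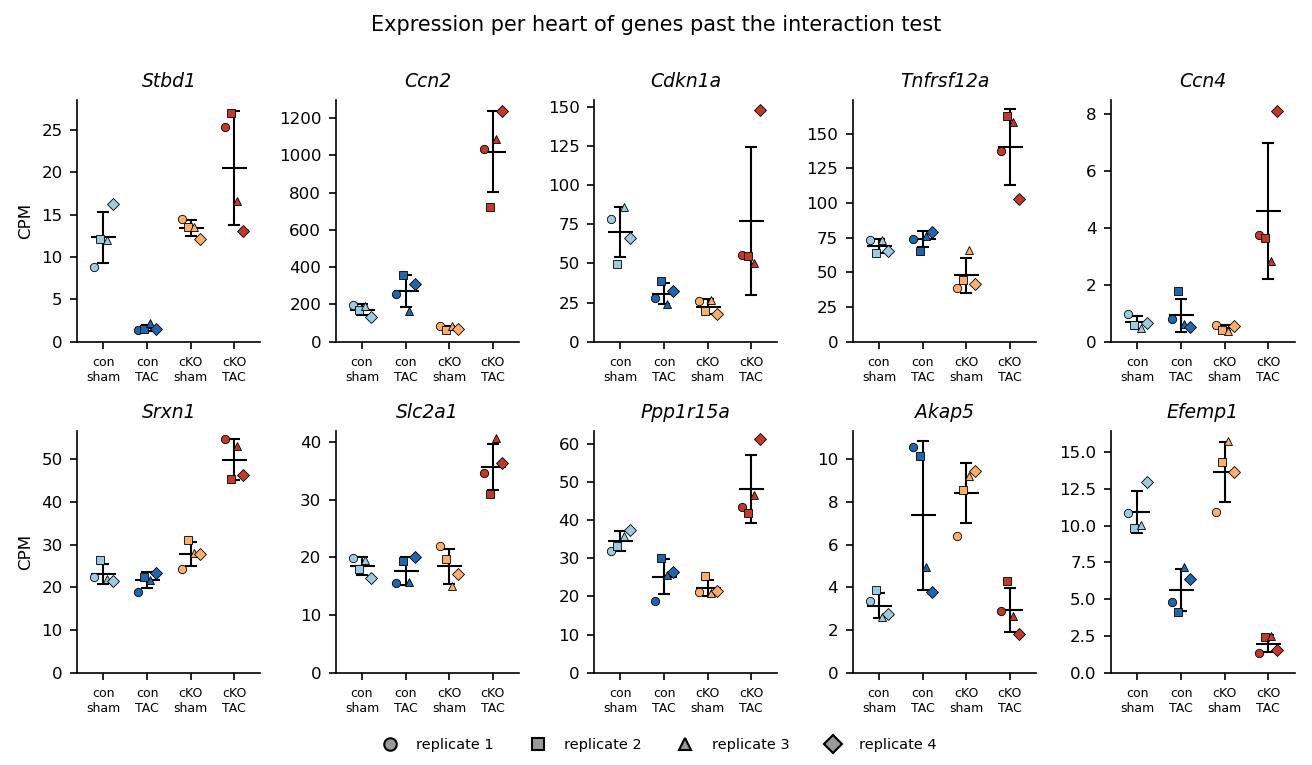
CPM in each of the 16 hearts for 10 genes whose interaction of deletion and TAC had an adjusted p of at most 0.05 (con, control; cKO, Trbp-cKO), with the mean and SD of 4 hearts per group in black. Stbd1 is lowest in control TAC hearts, most other genes are highest in Trbp-cKO TAC hearts, and Akap5 and Efemp1 are lower there than in Trbp-cKO sham hearts.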

How the data were processed

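Polyadenylated ventricular RNA of 16 mouse hearts was sequenced in paired reads. The authors aligned the reads to GRCm38 with HISAT2 2.1.0 after Cutadapt 2.3, estimated transcripts with StringTie 1.3.4 and deposited raw counts per gene and heart, not normalized. These counts come from coverage divided by an assumed read length whose value is not given in the sources used here, so a fit with the counts divided by 2 was added as an alternative. Gene symbols and positions came from GENCODE M21 on GRCm38. The p-values of the main fit set a difference against a spread between hearts within groups. That spread was estimated per gene over all 16 hearts, sham hearts included, with information shared across genes. It is not the spread of the TAC hearts alone, whose own fit called 67 genes higher and 17 lower.

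The counts were fitted with edgeR 4.0.16 in R 4.3.3: default filter on low counts, TMM, and a robust quasi-likelihood model with 1 term per group, estimated on all 16 hearts. Contrasts were Trbp-cKO against control after TAC, after sham surgery, and their difference. The alternatives included DESeq2 1.42.0, edgeR's exact test, other filters and scalings, the replicate block and each heart left out in turn.

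The members, gene lists and rules were chosen with earlier results of these data known. Named genes were Tarbp2, the 12 largest rises and falls and the 6 most abundant calls in each direction (mean log2 CPM of at least 1 over the TAC hearts, with a symbol, no collagen, Tgfb, Ltbp or Smad gene; the first group without overlap between the hearts), the called members of each list (or, where none or over 6 were called, the 3 with the smallest p), and the 5 largest interactions among calls. Mir208b, Mir208a, marker genes and list members given by value only lie outside this rule and were chosen after their values were seen. The procedure was run on simulated counts that had the same spread per gene in all groups. That setting lacks the split among the control TAC hearts, so it does not show how the calls behave under it. Depth was between 45166994 and 68274222 counts per heart. A gene that the naming rule chose is not reported here.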

Additional observations from a re-analysis of the deposited data

Results flagged for a closer look

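A heart lay far from the other 3 of its group, by the gap to its neighbor relative to the group's range (Dixon's test), in 22 of 246 groups examined, where chance alone gives about 5%. In 13 of the 22 the heart was Trbp-cKO TAC replicate 4. It was the highest of its group for Fmod (217 CPM), Cthrc1 (8.58 CPM), Mmp3 (13.1 CPM), Cdkn1a (148 CPM), Thbs4 (482 CPM), Lox (125 CPM) and Ccn4 (8.10 CPM), and the lowest for Dct (1.02 CPM), Pdha1 (341 CPM), Idh3g (206 CPM), Oxct1 (483 CPM), Nqo1 (50.02 CPM) and Fzd2 (13.8 CPM). The lowest value of its group came from Trbp-cKO TAC replicate 1 for Des (3403 CPM) and from replicate 2 for Bnip3 (165 CPM). Replicate 2 was the highest for Mybpc1 (1.82 CPM) and Ndufa5 (205 CPM), and replicate 3 for Psph (5.78 CPM), Gdf15 (209 CPM) and Oas2 (19.0 CPM). In the control TAC group, replicate 3 was the highest for Stbd1 (2.19 CPM) and replicate 2 the lowest for Cox7a1 (263 CPM).

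The difference between Trbp-cKO and control hearts, here called the deletion effect, was not equal after TAC and after sham surgery in the 21 named genes that follow. The criterion was the interaction term of edgeR's fit at an adjusted p of at most 0.05. The sham groups also differed in clock genes, and the part of the hour of collection was not tested. On the log2 scale, the deletion effect was more positive after TAC for Stbd1 (3.50), Mlph (2.40), Nppb (1.79), Ccn2 (3.16), Myl4 (1.64), Slc2a1 (1.02), Ppp1r15a (1.57), Dnajc3 (0.69), Srxn1 (0.94), Gstm2 (0.74), Cdkn1a (2.98), Ccnd2 (0.72), Tnfrsf12a (1.46), Clock (0.89), Arntl (3.35) and Ccn4 (2.82). It was more negative after TAC for Efemp1 (-1.84), Hmcn2 (-2.0), Ccl24 (-2.03), Per3 (-2.12) and Akap5 (-2.76). Dnajc3, Arntl, Clock and Per3 were not called in the TAC hearts themselves.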

How the results depend on the processing

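The main counts were 309 genes called higher, 182 called lower and 174 in the interaction. With a fold threshold of 1 on the log2 scale 119 were lower, and with no fold threshold 774 were higher and 329 lower. Scaling by library size alone gave 579 higher, which moved the share of rises among the calls from 62.9% to 82.1% and the median log2 fold change of all genes from -0.01 to 0.13. The fit of the 8 TAC hearts alone gave 67 and 17. DESeq2 gave 336 lower and 552 in the interaction, and no filter on low counts gave 111 lower and 103 in the interaction. The replicate block gave 196 higher, 78 lower and 54 in the interaction; the replicate numbers did not pair the hearts, with correlations of deviations of -0.175, -0.292, 0.079 and -0.427 between same-numbered control TAC and Trbp-cKO TAC hearts, and no heart correlated best with its own number. Leaving out each heart in turn gave 197 to 399 higher, 76 to 344 lower and 57 to 397 in the interaction. Without control TAC replicate 1 the counts were 197, 90 and 86, without replicate 4 they were 399, 344 and 397, without Trbp-cKO TAC replicate 1 they were 218, 76 and 99, without replicate 2 they were 282, 118 and 134, and without replicate 3 they were 262, 107 and 97. Of the sham hearts, the interaction count was lowest without control sham replicate 3. Among the settings chosen after seeing the data, leaving out control TAC replicate 3 and Trbp-cKO TAC replicate 4 gave 532, 442 and 423, and leaving out control TAC replicates 3 and 4 gave 1688, 1032 and 2958. Without the latter pair the interaction of Hopx reversed, to 1.38. The cause of these shifts was not tested. The other alternatives stayed within 1.5 times the main counts. Of the 84 called named genes, 58 remained called under the replicate block, 83 with DESeq2 and 81 with library size scaling, and none reversed its direction in TAC hearts.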

Other observations

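In Trbp-cKO TAC hearts, the clock genes Arntl, Npas2 and Per3, chosen after their values were seen, separated replicates 1 and 2 from replicates 3 and 4. Arntl, the activator of the circadian clock, measured 3.39, 2.79, 17.9 and 14.9 CPM in Trbp-cKO TAC replicates 1 to 4, and 8.46, 8.75, 3.0 and 2.65 CPM in the control TAC hearts. Npas2, a partner of Arntl, measured 1.1, 1.34, 4.02 and 4.24 CPM in Trbp-cKO TAC and 2.69, 1.94, 1.42 and 1.7 CPM in control TAC hearts. Per3, a repressor, ran opposite to Arntl within the Trbp-cKO TAC group, with 40.6, 40.0, 15.1 and 25.9 CPM, and measured 40.8, 41.6, 46.9 and 44 CPM in the control TAC hearts. In sham hearts the mean of Arntl was 16.5 ± 3.2 CPM in control and 2.77 ± 0.509 CPM in Trbp-cKO mice (SD, n = 4 each). The hour at which each heart was taken is not given in the sources used here, and its part in these values was not tested.

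Of the genes called lower, 5 were annotated as microRNA loci. Besides Mir208b they were Mir6999 (log2 fold change -1.02, adjusted p = 0.0427), Mir6236, Gm24270 and Gm47301, the last 3 of which measured 12, 103 and 22.8 CPM in control TAC replicate 3 and at most 3.82 CPM in the other control TAC hearts.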
